A study of Oryza sativa with 12 samples.

Results

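The annotation of the deposited expression table gives the peroxidase domain PF00141 to 171 of 41620 rice genes, and these 171 peroxidase genes are described here. The rule uses that domain and no measured value. In the table, 96 of them are named class III peroxidase, 8 are named ascorbate peroxidase, 54 have another name or none, and 13 are unannotated transcripts. The 8 ascorbate peroxidases belong to class I of the superfamily, so the genes are called peroxidase genes rather than class III peroxidases. One member, Os01g0263300, carries the name ATPase subunit 6 in the table although its description holds the peroxidase domain. RNA was sequenced from roots of 3-wk-old Nipponbare seedlings after 2 wk in hydroponic culture. The 4 groups were WT with 0.4 mM phosphate (WT +Pi), the CRISPR/Cas9 line Os1400-12SIII with 0.4 mM phosphate (Os1400 +Pi), and WT and Os1400-12SIII with 0.004 mM phosphate (WT low-Pi and Os1400 low-Pi). Each group had 3 libraries. Os1400-12SIII is a biallelic homozygous mutant of OsMAX1-1400, which encodes an enzyme of strigolactone biosynthesis that converts 4-deoxyorobanchol to orobanchol, and no second line was sequenced. The study calls its replicates biological, but the labels do not say whether the libraries of a group came from separate cultures, so p-values measure only the spread between these libraries.

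Class III peroxidases are heme enzymes that plants secrete to the cell wall and the vacuole. With hydrogen peroxide, they oxidize phenolic compounds, which cross-links wall polymers and polymerizes lignin, and they can also release or consume reactive oxygen species. In roots, they act in the Casparian strip, in wall stiffening at the end of cell elongation, and in root hairs. Ascorbate peroxidases work inside the cell, where they reduce hydrogen peroxide with ascorbate as the electron donor. Plants cope with scarce phosphate (Pi) by changing root growth, and strigolactones are made in larger amounts by Pi-starved roots.

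Total counts per library ranged from 28271749 to 41078078. The WT low-Pi libraries stood apart, since between 17711 and 22077 genes had a count in them against 27191 to 30375 in the other 9 libraries. Likewise, 95, 98, and 107 peroxidase genes had a count in the WT low-Pi libraries, against 118 to 128 in the others. WT low-Pi replicate 3 differed from the other 2 of its group, with a summed peroxidase level of 20082.6 FPKM (fragments scaled to gene length and to the number of fragments) against 12782 and 11744.8 FPKM. The sum of FPKM over all genes was also higher in WT low-Pi (883018 to 1169410) than in the other libraries (698135 to 767858). Levels in WT low-Pi are thus parts of a larger sum, and all fold changes below were taken from normalized counts. Transcripts of OsMAX1-1400 (Os01g0701400) stood at 0 FPKM in WT as well as in Os1400, and the labelled genotypes were not checked by this gene. The genes RCc3, Lsi1, and Lsi2, which mark root tissue, were between 123 and 4395 FPKM in every library but moved with Pi in Os1400. The silicon transporter Lsi1 was read at 1362, 1419.7, and 1199.9 FPKM in Os1400 +Pi and at 396, 180.2, and 499.7 FPKM in Os1400 low-Pi, and at 1268 to 1569 FPKM in WT +Pi and 719, 507, and 4395 FPKM in WT low-Pi. Lsi2 was at 1030 to 1199 FPKM in Os1400 +Pi and 123 to 333 FPKM in Os1400 low-Pi, and at 916 to 1260 FPKM in WT +Pi and 155 to 926 FPKM in WT low-Pi. RCc3 was at 869.9 to 1359 FPKM in Os1400 +Pi and 1892 to 2889 FPKM in Os1400 low-Pi. In WT, RCc3 was at 1377, 1662, and 1553 FPKM at +Pi and at 1355, 1379, and 2736 FPKM at low-Pi, which overlap. The summed level of 26 leaf genes, for chlorophyll-binding proteins and the small subunit of Rubisco, was between 48.1 and 73.7 FPKM in 11 libraries and 128 FPKM in WT low-Pi replicate 3. Of these leaf genes, 5 to 6 were above 0 in the WT low-Pi libraries and 14 to 18 in the others. The part of these differences in the results was not tested, and in bulk roots fewer cells of a type and less RNA per cell cannot be told apart.

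Peroxidase genes were a small but strongly expressed group in these roots. Of the 171 genes, 113 had a mean of at least 1 FPKM, 25 had at least 100 FPKM, and 29 were listed at 0 in all libraries. Their share of all counts was 1.22% ± 0.109 in WT +Pi, 1.06% ± 0.0361 in Os1400 +Pi, 1.62% ± 0.280 in WT low-Pi, and 1.42% ± 0.109 in Os1400 low-Pi (SD, n = 3 each). Each low-Pi library had a larger share than any +Pi library of the same genotype. In the exact two-sided permutation test, p was 0.1 for low-Pi against +Pi in WT and in Os1400, the smallest value that 3 libraries against 3 allow. Between genotypes, p was 0.1 at +Pi and 0.4 at low-Pi in the same exact test. The strand setting of the counting is not given in the sources used here, and 60 members overlap another listed gene, 59 of them on the other strand only, so reads of the gene and its partner cannot be told apart. Among the genes described below, this holds for Os01g0270300, Os02g0833900, Os03g0121200, Os03g0368300, Os05g0135200, Os06g0695500, Os07g0115300, Os08g0113000, Os08g0302000, Os09g0471100, and Os12g0111800.

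The most abundant peroxidase gene was Os03g0285700, which encodes the cytosolic ascorbate peroxidase 1. It was read at 1266, 1167, and 1215 FPKM in WT +Pi, at 1324, 1133, and 1056 FPKM in Os1400 +Pi, at 1064, 961, and 1427 FPKM in WT low-Pi, and at 1310.4, 1345, and 1356 FPKM in Os1400 low-Pi. The 4 groups overlapped, and no comparison passed the threshold. The class III peroxidases 64 (Os04g0689000), 54 (Os04g0423800), 11 (Os01g0294700), and 59 (Os04g0688100) followed with means over all 12 libraries of 813, 769, 665, and 516 FPKM. Os04g0423800 and Os04g0688100 passed no test, at group means between 662 and 877 FPKM and between 408 and 584 FPKM. Os01g0263300 (525 FPKM on average), the cytosolic ascorbate peroxidase 2 (Os07g0694700, 463 FPKM), peroxidase 1 (Os05g0499300, 452 FPKM), class III peroxidase 109 (Os07g0676900, 367 FPKM), and peroxidase A (Os10g0109600, 323 FPKM) completed the 10 highest. Os01g0263300 was read at 187, 272, and 483 FPKM in WT low-Pi, below all WT +Pi libraries (547 to 731 FPKM), but its difference missed the threshold (adjusted p = 0.0907).

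**Figure D1:**
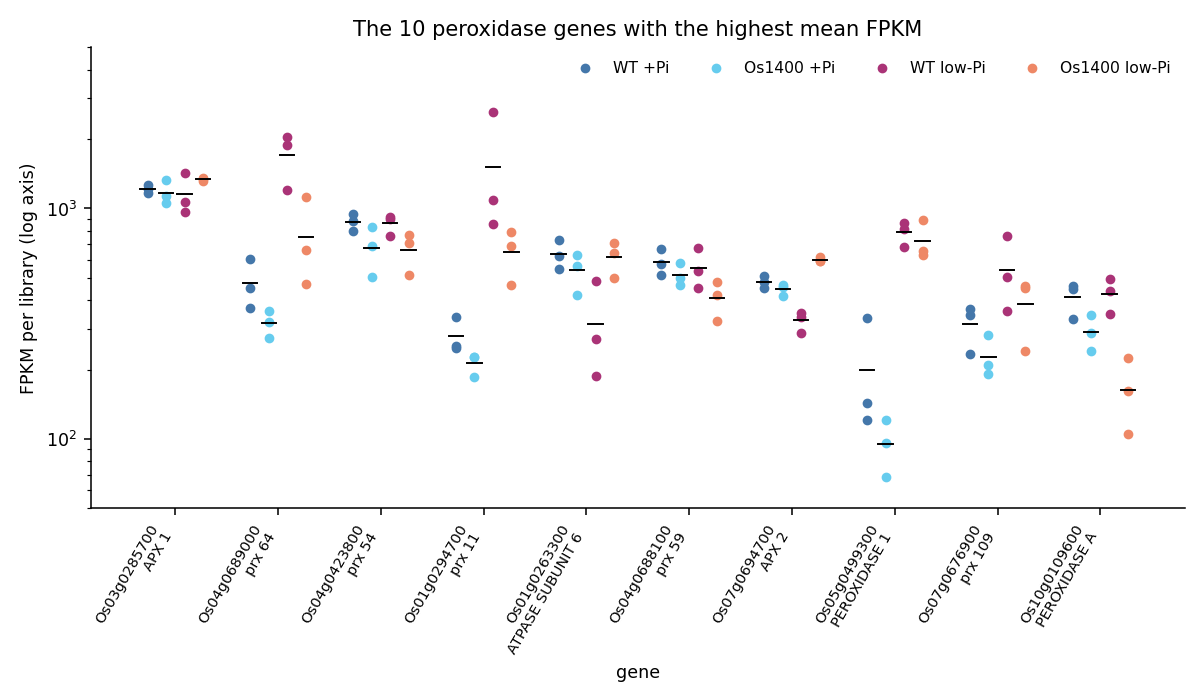
The plot of the 10 highest members gives the FPKM of each library (points, log axis) and the mean of 3 libraries (line) for each gene in the 4 groups. Class III peroxidase 64 and peroxidase 1 lie higher in all low-Pi libraries than in the +Pi libraries of the same genotype, whereas ascorbate peroxidase 1 stays between 961 and 1427 FPKM in all 12 libraries.

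The comparison of low-Pi with +Pi asks how root peroxidase transcripts responded to Pi supply in each genotype. Peroxidase genes rose more often than they fell in both genotypes. In WT, 28 of 117 tested peroxidase genes rose and 10 fell at an FDR of 0.05 or less, while 8.46% and 15.2% of all genes tested rose and fell. In Os1400, 44 of 119 rose and 18 fell, while 15.6% and 14.0% of all genes tested did so. The median log2 fold change of the peroxidase genes was 0.73 in WT and 0.50 in Os1400, beside -0.28 and -0.00 over all genes. WT low-Pi replicate 3 weighed on the WT values, since without it the median was 0.13, beside -0.51 over all genes, and 27 peroxidase genes rose and 26 fell. Over all genes, 9043 were called without it, against 5962 with all WT libraries. The WT counts also depended on the WT +Pi libraries, with 13, 23, and 12 peroxidase genes called without replicate 1, 2, or 3. Calls over all genes fell as well, to 1845, 3570, and 1830. Of the 117 genes tested in both genotypes, 23 rose in both, which is 82.1% of those that rose in WT and 52.3% of those that rose in Os1400. Those that fell in both numbered 4, or 40% of the WT and 22.2% of the Os1400 calls. The overlap of calls over all genes was not computed, so these shares are not shown to be particular to peroxidase genes. The peroxidase calls in Os1400 numbered from 42 to 67 when any library was left out. Those over all genes numbered from 5830 to 8039, against 8191 with all Os1400 libraries.

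**Figure D2:**
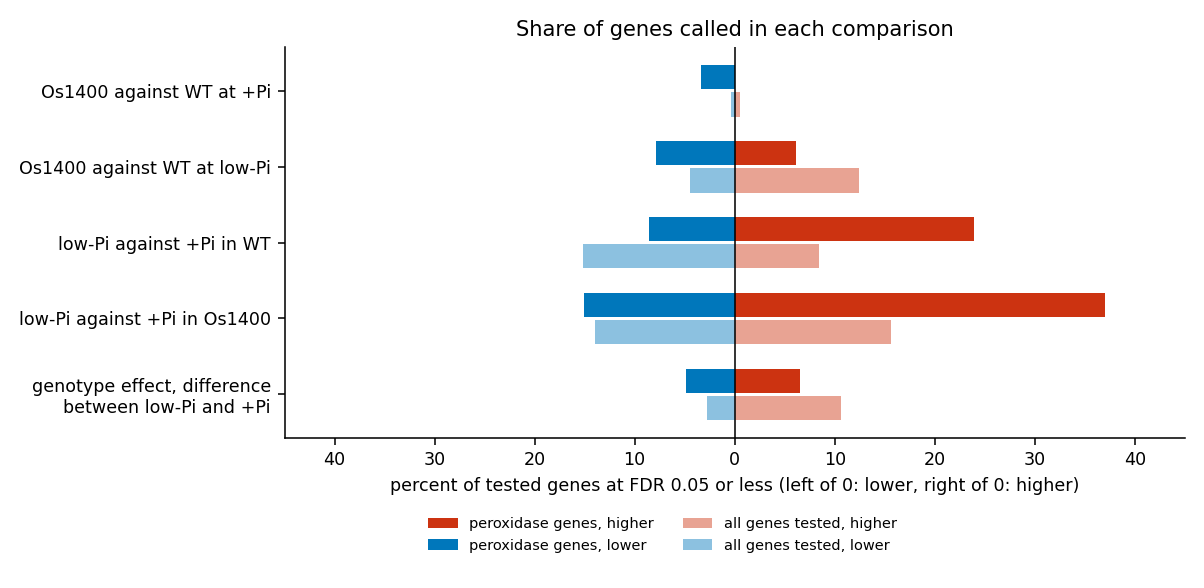
Bars show the percent of tested genes called higher (red, right) or lower (blue, left) at an FDR of 0.05 or less in each comparison, for peroxidase genes (dark) and all genes tested (light). In the WT and Os1400 responses to low-Pi, 23.9% and 37% of the peroxidase genes rose, beside 8.46% and 15.6% of all genes.

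Among the class III peroxidases that rose in both genotypes, class III peroxidase 4 (Os01g0270300, chromosome 1 from 9339815 to 9342240) was read at 22.1, 26.7, and 21.6 FPKM in WT +Pi and at 258, 132, and 213 FPKM in WT low-Pi. In Os1400, it was read at 18.5, 16.2, and 19.1 FPKM at +Pi and at 68.9, 70.0, and 68.0 FPKM at low-Pi. The groups did not overlap in either genotype, and it rose on the log2 scale by 3.04 ± 0.27 (SE) in WT (adjusted p = 0.00325) and by 2.04 ± 0.13 in Os1400 (adjusted p = 7.1e-06). Class III peroxidase 89 (Os06g0681600, chromosome 6 from 28414034 to 28425443) stood at 16.0 to 21.8 FPKM in WT +Pi and at 18.1 to 24.4 FPKM in Os1400 +Pi. It reached 130.3, 129, and 229.7 FPKM in WT low-Pi and 103, 49.1, and 112 FPKM in Os1400 low-Pi, all above every +Pi library, with log2 fold changes of 3.04 ± 0.29 in WT (adjusted p = 0.00352) and 2.21 ± 0.27 in Os1400 (adjusted p = 0.000308). Class III peroxidase 69 (Os05g0135200) likewise rose from 8.53, 16.0, and 10.2 FPKM to 65.2, 72.2, and 95.0 FPKM in WT, and from 10.6, 13.8, and 11.3 FPKM to 38.3, 30.6, and 35.9 FPKM in Os1400. These 3 genes kept their calls in both genotypes in every alternative tried, including each left-out library.

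The abundant members contributed to the rise as well. Peroxidase 1 (Os05g0499300, chromosome 5 from 24583251 to 24584927) was read at 143, 336, and 121 FPKM in WT +Pi and at 684, 816, and 864 FPKM in WT low-Pi, and it went from 68.7, 95.9, and 121 FPKM to 891, 656, and 629 FPKM in Os1400. Its log2 fold change was 1.93 ± 0.42 in WT (adjusted p = 0.0191) and 3.03 ± 0.23 in Os1400 (adjusted p = 1.85e-05). Class III peroxidase 64 (Os04g0689000) rose from 452, 602, and 369 FPKM to 2051, 1877, and 1199 FPKM in WT and from 320.5, 360.0, and 275 FPKM to 658, 1119, and 470.0 FPKM in Os1400. Class III peroxidase 11 (Os01g0294700) was read at 1089, 860.0, and 2611 FPKM in WT low-Pi against 249 to 338 FPKM in WT +Pi, and at 790.1, 465, and 687 FPKM in Os1400 low-Pi against 185 to 226 FPKM in Os1400 +Pi. The low-Pi and +Pi groups of these 3 genes did not overlap. Their WT calls were lost when WT +Pi replicate 1 or 3 was left out (adjusted p up to 0.0824, 0.0604, and 0.0688, respectively), while their Os1400 calls were kept in every alternative.

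Fewer members fell at low-Pi. Class III peroxidase 17 (Os01g0543100, chromosome 1 from 20061961 to 20066455) fell from 334, 316, and 304 FPKM to 78.8, 62.6, and 58.2 FPKM in WT, and from 364, 353, and 392 FPKM to 155, 139, and 108 FPKM in Os1400. The log2 fold changes were -2.30 ± 0.17 (adjusted p = 0.0025) and -1.36 ± 0.16 (adjusted p = 0.000191). Class III peroxidase 117 (Os08g0113000) fell from 218, 169, and 189 FPKM to 43.2, 38.3, and 55.0 FPKM in WT and from 229.7, 174, and 174 FPKM to 65.4, 32.1, and 49.6 FPKM in Os1400. Both genes kept their calls in every alternative. Class III peroxidases 61 (Os04g0688300) and 118 (Os08g0302000) fell in Os1400, by log2 fold changes of -3.67 ± 0.24 (adjusted p = 8.39e-06) and -1.89 ± 0.19 (adjusted p = 9.13e-05). Both calls were lost in 1 fit over all 12 libraries (adjusted p = 0.0627 and 0.185). In Os1400, Os04g0688300 went from 40.3, 43.5, and 24.3 FPKM to 2.61, 2.40, and 2.90 FPKM, and Os08g0302000 from 20.7, 21.1, and 17.8 FPKM to 5.96, 4.09, and 4.92 FPKM. In WT low-Pi, Os04g0688300 was read at 0, 7.23, and 7.02 FPKM and Os08g0302000 at 5.09, 5.26, and 57.0 FPKM, and neither passed the test in WT. The difference between the genotypes was not called for either gene.

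**Figure D3:**
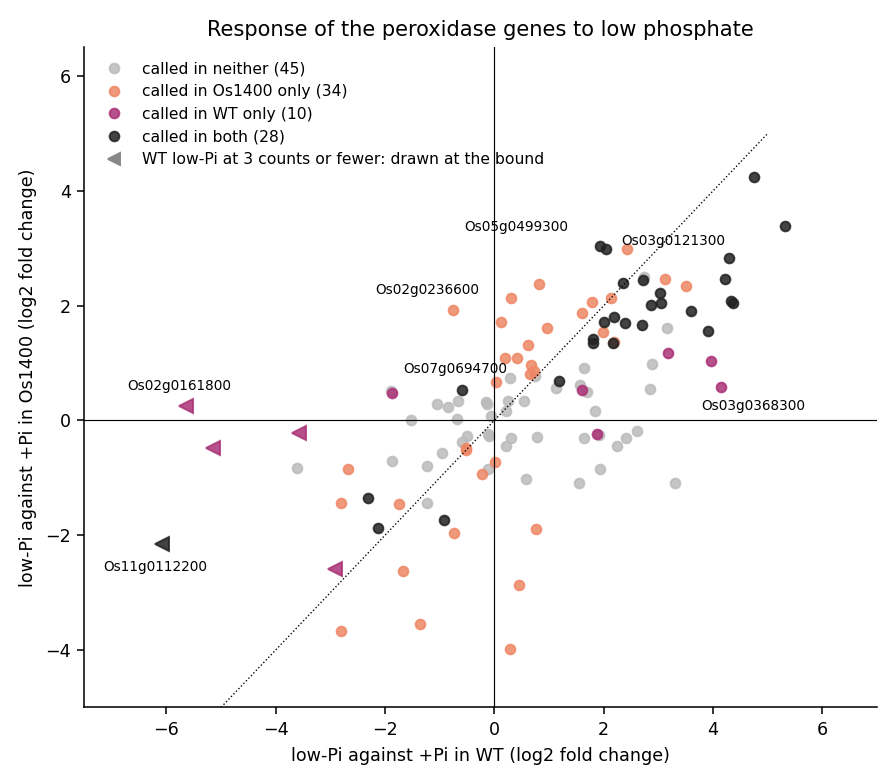
Each point is 1 of the 117 peroxidase genes tested in both genotypes, with the log2 fold change of low-Pi against +Pi in WT on the x axis and in Os1400 on the y axis (dotted line, equal values). Most called genes lie in the upper right, and the 5 triangles are genes with at most 3 counts in each WT low-Pi library, drawn at the bound that 3 counts set.

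Whether the Pi response differed between genotypes was tested by the interaction term over all 12 libraries, which equally tests whether the genotype effect differed between Pi supplies. It was called for 14 of 122 tested peroxidase genes. The genotype effect (Os1400 against WT) was higher at low-Pi than at +Pi for 8 of them and lower for 6, while 10.6% and 2.82% of all genes tested were called higher and lower. The median over the peroxidase genes was -0.35, beside 0.38 over all genes. Leaving out WT low-Pi replicate 2 or 3 raised the number of calls to 23 and 25, and without replicate 3 the median of the peroxidase genes was 0.16, beside 0.58 over all genes. Calls over all genes rose as well, from 3838 to 6658 and 6552. Since the WT response, the genotype comparison at low-Pi, and this term share the WT low-Pi libraries, the values of the members are given side by side.

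The 6 genes with a lower value rose in WT, fell in Os1400, or rose less in Os1400. Class III peroxidase 90 (Os06g0695500, chromosome 6 from 29051012 to 29054304) rose in WT from 22.0, 30.8, and 27.4 FPKM to 117, 75.3, and 111 FPKM, but in Os1400 it was read at 19.9, 21.9, and 28.7 FPKM at +Pi and at 19.1, 20.5, and 16.2 FPKM at low-Pi. All 3 WT low-Pi libraries lay above the other 9. Class III peroxidase 43 (Os03g0368300) showed the same arrangement, with 149, 72.0, and 339 FPKM in WT low-Pi against 7.34 to 18.1 FPKM in the other 9 libraries. Class III peroxidase 32 (Os02g0833900) reached 99.0, 57.9, and 92.6 FPKM in WT low-Pi, 12.8, 15.6, and 6.63 FPKM in Os1400 low-Pi, and 3.69 to 6.6 FPKM at +Pi, and it rose in both genotypes, by 3.91 ± 0.32 in WT and 1.55 ± 0.32 in Os1400 on the log2 scale. Class III peroxidase 98 (Os07g0115300) went the other way in Os1400, where it fell from 11.4, 9.57, and 9.04 FPKM to 1.14, 1.35, and 1.34 FPKM (log2 fold change -2.87 ± 0.23, adjusted p = 2.55e-05). In WT, it stood at 17, 12.3, and 14.6 FPKM at +Pi and at 41.8, 6.03, and 14.5 FPKM at low-Pi, which overlap. The remaining 2 were class III peroxidase 4, described above, and ascorbate peroxidase 7.

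The 8 genes with a higher value include 4 that were at 0 counts in every WT low-Pi library. Of the other 4, class III peroxidase 27 (Os02g0236600, chromosome 2 from 7751287 to 7753674) was read at 53.8, 64.3, and 91.5 FPKM in Os1400 +Pi and at 262, 206, and 278 FPKM in Os1400 low-Pi, which do not overlap (1.93 ± 0.21 on the log2 scale, adjusted p = 0.000127). In WT, it was at 97.1, 169, and 86.8 FPKM at +Pi and at 40.0, 68.4, and 107 FPKM at low-Pi, and the WT groups overlapped. Class III peroxidase 122 (Os09g0471100) fell in WT from 16.7, 17.1, and 21.2 FPKM to 4.38, 3.98, and 7.21 FPKM and was at 12.2 to 24.6 FPKM in all Os1400 libraries. The WT call of Os09g0471100 was lost without any 1 of the 3 WT +Pi libraries (adjusted p up to 0.0975). Class III peroxidase 17 fell in both genotypes, as given above, and ascorbate peroxidase 2 was the only member called in opposite directions.

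**Figure D4:**
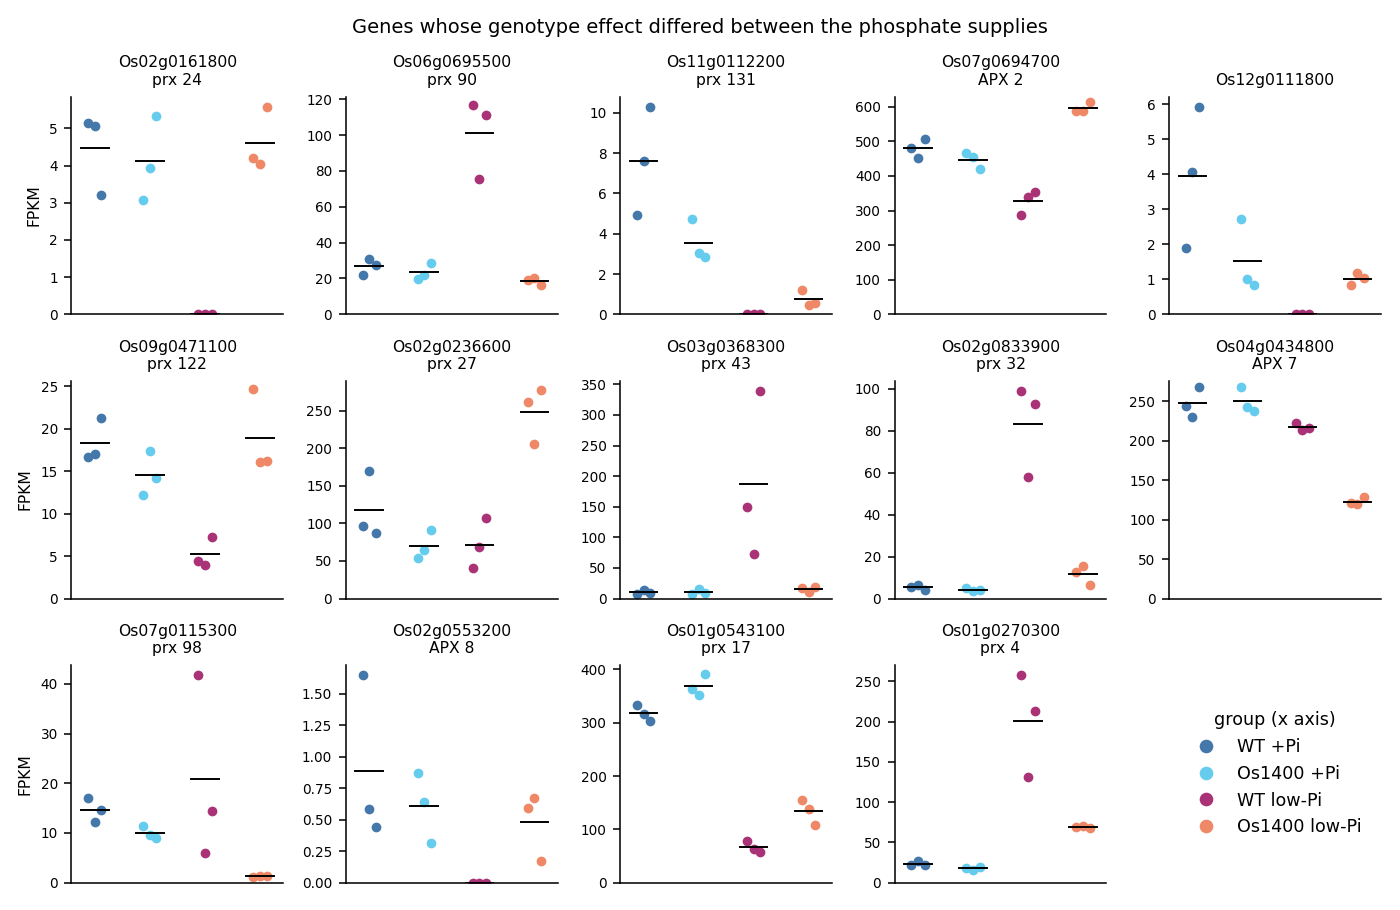
Each panel shows the FPKM of the 12 libraries (points) and the group means (lines) for 1 of the 14 peroxidase genes called in the interaction test, on axes that start at 0. For Os06g0695500, Os03g0368300, Os02g0833900, and Os01g0270300, the 3 WT low-Pi libraries are above all others, whereas Os02g0161800, Os11g0112200, Os12g0111800, and Os02g0553200 are at 0 in WT low-Pi.

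Several low-abundance members were not detected in WT low-Pi. Class III peroxidase 24 (Os02g0161800), which lies on chromosome 2 from 3336154 to 3339094, was counted 305, 307, and 159 times in WT +Pi, with 158, 236, and 315 counts in Os1400 +Pi, 0 in each WT low-Pi library, and 191, 211, and 245 counts in Os1400 low-Pi. At low-Pi, it was at least 52.2-fold higher in Os1400 than in WT, computed against 3 counts per library. Os12g0111800, which has no name in the table, had 31, 49, and 36 counts in Os1400 low-Pi and 0 in WT low-Pi, at least 9.26-fold higher. Class III peroxidase 131 (Os11g0112200) had 43, 19, and 20 counts in Os1400 low-Pi and 0 in WT low-Pi, at least 6.67-fold higher, and it also fell in Os1400 from 4.71, 3.04, and 2.84 FPKM to 1.18, 0.456, and 0.570 FPKM. Against WT +Pi, the WT low-Pi level was at least 49.9-fold lower for Os02g0161800, at least 67.8-fold lower for Os11g0112200, and at least 35.4-fold lower for Os12g0111800. Class III peroxidase 63 (Os04g0688600) had 60, 38, and 19 counts in WT +Pi and 0 in WT low-Pi, at least 7.54-fold lower, and at most 10 counts in Os1400 low-Pi. These calls against WT +Pi were lost without any 1 of the WT +Pi libraries for Os02g0161800, Os11g0112200, and Os12g0111800, and without WT +Pi replicate 3 for Os04g0688600 (adjusted p = 0.0525). With the replicate number as a block, each of these calls was lost. The call of Os04g0688600 was also lost without a filter on low counts (adjusted p up to 0.48 over its alternatives). Zeros of this kind were found among other genes of the WT low-Pi libraries as well. By the rule of at most 3 counts in each library of one genotype and at least 30 in each of the other, 1.53% of listed peroxidase genes were silent in WT low-Pi against 3.32% of all listed genes. Of 102 peroxidase genes with at least 30 counts in each Os1400 low-Pi library, 17, 8, and 6 had 0 counts in WT low-Pi replicates 1, 2, and 3 (16.7%, 7.84%, and 5.88%), against 23.6%, 12.9%, and 10.2% of all such genes.

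The comparison of Os1400 with WT at +Pi asks what disruption of OsMAX1-1400 changed under ample Pi. Few peroxidase genes differed, and all that did were lower in Os1400. Of 119 tested, 4 fell and 0 rose, while 0.418% and 0.540% of all genes tested fell and rose. In edgeR's test at an unadjusted p of 0.05 or less, 23 peroxidase genes were lower and 3 higher. Of all 27777 genes tested, 1341 were lower and 1456 higher at that p. DESeq2 called 10 peroxidase genes lower and 0 higher, beside 662 of all genes in either direction. Class III peroxidase 34 (Os03g0121300, chromosome 3 from 1178482 to 1180131) was read at 41.2, 57.6, and 31.9 FPKM in WT and at 17.1, 18.1, and 13.9 FPKM in Os1400, a change of -1.44 ± 0.20 on the log2 scale (adjusted p = 0.00319). At low-Pi, the same gene stood at 239, 198, and 115 FPKM in WT and at 144, 119.8, and 96.3 FPKM in Os1400, and it rose by 2.98 ± 0.19 on the log2 scale in Os1400. Class III peroxidase 46 (Os03g0369000, chromosome 3 from 14480546 to 14482432) was read at 37.6, 26.3, and 31.2 FPKM in WT and at 17.4, 11.9, and 9.77 FPKM in Os1400 (log2 fold change -1.31 ± 0.21, adjusted p = 0.00746). An unannotated transcript on the same strand near Os03g0121300 (chromosome 3 from 1190084 to 1191958) was at 7.17, 4.04, and 5.03 FPKM in WT and at 1.59, 1.20, and 0.523 FPKM in Os1400 (-2.32 ± 0.40, adjusted p = 0.0136). Class III peroxidase 95 (Os07g0104500) was at 49.7, 44.5, and 66.7 FPKM in WT and at 25, 37.3, and 25.9 FPKM in Os1400 (-0.89 ± 0.18, adjusted p = 0.0353). The genotypes did not overlap for these 4 genes. Only Os03g0121300 kept its call without each single library. Without WT +Pi replicate 1, WT +Pi replicate 3, or Os1400 +Pi replicate 2, the number of calls was 1, 2, and 2, and in 1 fit over all 12 libraries no peroxidase gene was called at an adjusted p of 0.05 or less in edgeR, with 6 at an unadjusted p of that size. Over all genes, the calls were 160, 161, and 133 without these libraries and 33 in that fit, against 266.

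At low-Pi, Os1400 and WT differed in more peroxidase genes, in both directions. Of 115 tested, 7 were higher and 9 lower in Os1400, while 12.4% and 4.47% of all genes tested were higher and lower. The median log2 fold change of the peroxidase genes was -0.51, beside 0.22 over all genes, and without WT low-Pi replicate 3 it was -0.00 beside 0.43. Among the 9 lower genes, Os06g0695500 had a log2 fold change of -2.36 ± 0.23, Os02g0833900 of -2.74 ± 0.40, Os03g0368300 of -3.51 ± 0.59, and Os01g0270300 of -1.46 ± 0.25 (adjusted p = 0.0184 each). Ascorbate peroxidase 7 (Os04g0434800) was the fifth by p. Os05g0135200 (-1.08 ± 0.20), Os07g0115300 (-3.93 ± 0.77), class III peroxidase 33 (Os03g0121200, -1.37 ± 0.31), and peroxidase A (Os10g0109600, -1.33 ± 0.31) made up the rest. Peroxidase A was read at 438, 495, and 347 FPKM in WT low-Pi and at 224, 105, and 161 FPKM in Os1400 low-Pi, which do not overlap, but its call was also lost without WT low-Pi replicate 1 or 2 (adjusted p = 0.0618 and 0.0697). Among the 7 higher genes, Os02g0236600 had a log2 fold change of 1.85 ± 0.37, Os01g0543100 of 1.09 ± 0.21, and Os09g0471100 of 1.94 ± 0.40 (adjusted p from 0.0188 to 0.0198). The others were ascorbate peroxidase 2 and the 3 genes at 0 counts in WT. These calls rested on the Os1400 low-Pi libraries. When replicate 1 or 3 of this group was left out, edgeR called 0 of all genes tested and 0 peroxidase genes, with 19 and 25 peroxidase genes at an unadjusted p of 0.05 or less. The 16 calls became 6 in the absence of replicate 2 of Os1400 low-Pi and 25 in the absence of replicate 3 of WT low-Pi. Calls over all genes became 2105 and 7168, against 4301.

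The 8 members named ascorbate peroxidase, which are of class I, showed differing patterns. The other members were not classed by sequence. Ascorbate peroxidase 2 (Os07g0694700, cytosolic, chromosome 7 from 29584033 to 29586303) was read at 480.2, 452, and 507 FPKM in WT +Pi, at 465, 454, and 419 FPKM in Os1400 +Pi, at 288, 339, and 353 FPKM in WT low-Pi, and at 589, 589, and 614 FPKM in Os1400 low-Pi. It thus fell at low-Pi in WT (-0.60 ± 0.16, adjusted p = 0.0404) and rose in Os1400 (0.52 ± 0.11, adjusted p = 0.00515), with a difference of 1.10 ± 0.17 on the log2 scale (adjusted p = 0.00206). The WT call was lost without any 1 of the WT +Pi libraries or WT low-Pi replicate 1 (adjusted p up to 0.174), whereas the Os1400 call and the difference were kept in every alternative. Ascorbate peroxidase 7 (Os04g0434800, a chloroplast form, chromosome 4 from 21622953 to 21627231) was at 214 to 269 FPKM in the 9 libraries of the other groups and at 121, 119.6, and 128 FPKM in Os1400 low-Pi. It fell in Os1400 (-0.93 ± 0.11, adjusted p = 0.000258), was lower in Os1400 than in WT at low-Pi (-0.76 ± 0.14, adjusted p = 0.0185), and its genotype effect at low-Pi minus that at +Pi was -0.71 ± 0.15. The call between genotypes at low-Pi was lost with the replicate number as a block or without any 1 of the Os1400 low-Pi libraries (adjusted p up to 0.0968). Ascorbate peroxidase 6 (Os12g0178100) rose in both genotypes, from 40.3 to 51.4 FPKM up to 71.1 to 134 FPKM in WT and from 46.5 to 48.9 FPKM up to 62.8 to 83.0 FPKM in Os1400. The WT call was lost without any 1 of the WT +Pi libraries or WT low-Pi replicate 1 (adjusted p up to 0.102), and the Os1400 call in 1 fit over all 12 libraries (adjusted p = 0.101). The neighboring ascorbate peroxidase 5 (Os12g0178200) was at 4.17 to 20.9 FPKM and passed no test. The peroxisomal ascorbate peroxidase 4 (Os08g0549100) fell in Os1400 from 92.3, 77.2, and 78.2 FPKM to 55.7, 52.7, and 53.9 FPKM (-0.51 ± 0.12, adjusted p = 0.011). This call was lost without Os1400 +Pi replicate 1 (adjusted p = 0.0633) and in 1 fit over all 12 libraries (adjusted p = 0.114). The peroxisomal ascorbate peroxidase 3 (Os04g0223300) was at 9.31 to 23.0 FPKM in all libraries and passed no test. The chloroplast ascorbate peroxidase 8 (Os02g0553200) was near the limit of detection, at most 1.65 FPKM, and had 116, 42, and 26 counts in WT +Pi and 0 in WT low-Pi, at least 11.8-fold lower. This call was lost without WT +Pi replicate 2 or 3 (adjusted p = 0.0579 and 0.0647). It was also lost without a filter on low counts and with the replicate number as a block (adjusted p up to 0.42).

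Most listed peroxidase genes lie close to another. In the table, 131 of the 171 lie in 38 tandem groups, in which each gene starts within 50 kb of the next, and 59 of these lie in 9 groups of 5 or more. These counts include genes that overlap a member on the other strand. Several groups consist only of such a pair, as for Os02g0833900 with Os02g0833975 and Os08g0113000 with Os08g0112950, and are not separate neighboring loci. Chromosome 7 holds the most members (34). Neighbors did not always respond alike, as 4 groups in the Os1400 response and 2 in the WT response held calls in both directions. Of the 29 and 24 groups with a call, respectively, most held only 1 call and could not show both directions. On chromosome 4, 6 genes lie between 35187443 and 35246736. In this group, class III peroxidase 59 (Os04g0688100) passed no test, class III peroxidase 60 (Os04g0688200) rose in Os1400 (1.71 ± 0.29, adjusted p = 0.00163), class III peroxidases 61 (Os04g0688300) and 62 (Os04g0688500) fell in Os1400, and class III peroxidase 64 (Os04g0689000) rose in both genotypes. Levels in this group ranged from a mean of 0.230 FPKM for Os04g0688600 to 813 FPKM for Os04g0689000. The largest group, on chromosome 5 between 2010153 and 2082747, has 9 genes, of which Os05g0135300 and Os05g0135450 overlap another member on the other strand. Of its 8 tested genes, 3 rose in WT, 4 rose in Os1400, and none fell. Class III peroxidase 67 (Os05g0134800) was read at 7.07, 24.3, and 12.1 FPKM in WT +Pi and at 138, 130.2, and 614 FPKM in WT low-Pi, and class III peroxidase 71 (Os05g0135500) at 74.8, 71.2, and 80.7 FPKM and at 419, 209, and 316 FPKM. Both genes also rose in Os1400 (2.82 ± 0.36 and 1.72 ± 0.31 on the log2 scale). The class III peroxidases 33, 60, 62, 67, and 71 fall outside the rule for named genes and were chosen after their values were seen. Reads shared between near-identical neighbors could have been assigned to either gene.

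**Figure D5:**
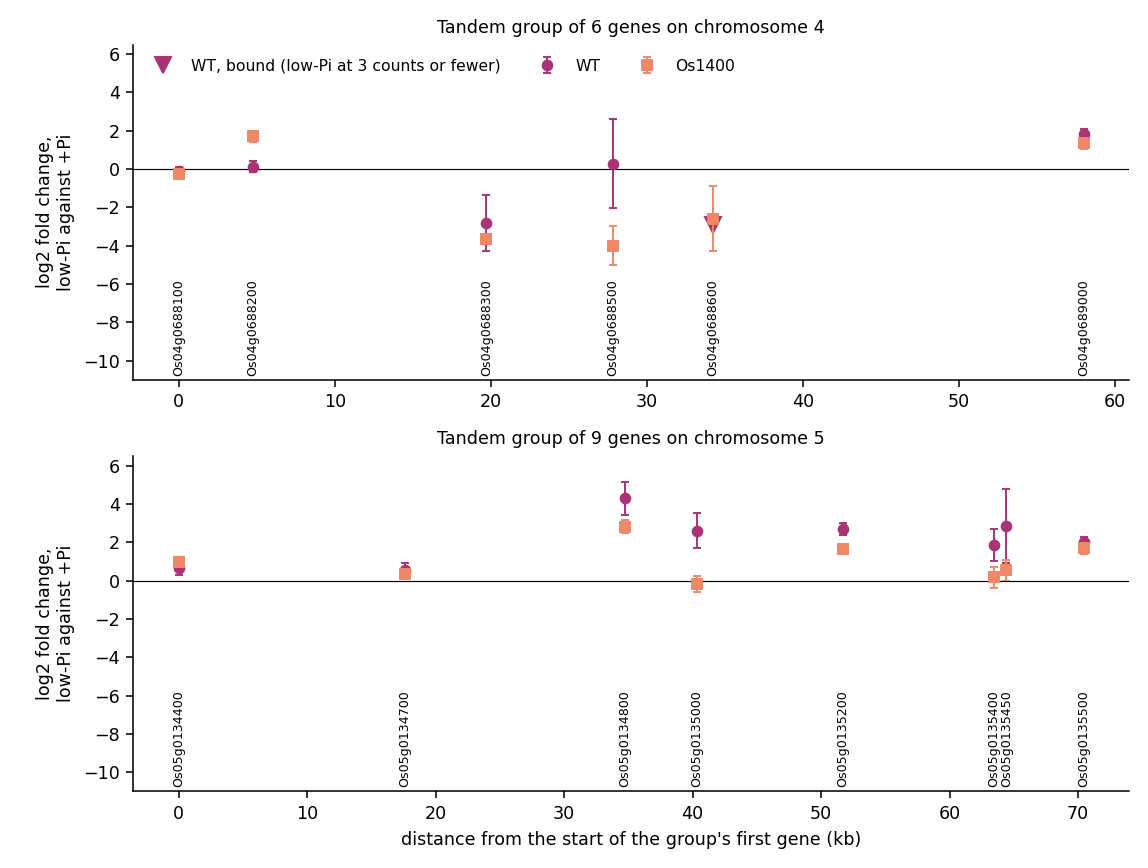
Points give the log2 fold change of low-Pi against +Pi in WT (circles) and Os1400 (squares), with bars of 1 SE, against the distance from the start of the first gene in the 2 tandem groups. In the group on chromosome 4, Os04g0688200 and Os04g0689000 lie above 0 in Os1400 and Os04g0688300 and Os04g0688500 below, whereas in the group on chromosome 5 all called genes lie above 0.

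Genes that act beside peroxidases were taken by protein domain. Of all genes tested, 8.46% rose and 15.2% fell at low-Pi in WT, and 15.6% rose and 14.0% fell in Os1400. Among those that make or remove hydrogen peroxide, 3 of 7 superoxide dismutases rose and 1 fell in WT at low-Pi, and 1 rose and 2 fell in Os1400. Superoxide dismutase 2 (Os03g0219200) fell in both, by -2.56 ± 0.42 in WT and -1.13 ± 0.13 in Os1400 on the log2 scale. Of 3 catalases, catalase A (Os02g0115700) rose in WT (1.94 ± 0.38) and catalase B (Os06g0727200) fell in Os1400 (-0.65 ± 0.13). Of the respiratory burst NADPH oxidases, which produce superoxide at the plasma membrane, 0 of 6 tested were called in WT and 1 of 7 in Os1400, where homolog H (Os12g0541300) fell (-1.13 ± 0.34). Of 4 tested glutathione peroxidases, 1 fell in each genotype, and peroxiredoxins rose and fell in numbers of 1 and 3 of 10 in WT and 3 and 1 of 9 in Os1400. Among genes of lignin formation, phenylalanine ammonia-lyase, the entry enzyme of the phenylpropanoid pathway, had 0 of 8 tested genes called in WT, and 1 higher and 1 lower in Os1400. Laccases and other multicopper oxidases, which also couple monolignols, rose in 4 and fell in 3 of 28 tested genes in WT and rose in 8 and fell in 3 of 28 in Os1400. Laccase 3 (Os01g0827300) rose by 2.34 ± 0.46 in WT and 1.84 ± 0.37 in Os1400. Dirigent proteins, which guide the coupling of phenolic radicals, rose in 6 and fell in 1 of 29 in WT and rose in 7 and fell in 5 of 31 in Os1400. The family of Casparian strip membrane proteins rose in 3 and fell in 2 of 32 in WT and rose in 9 and fell in 5 of 34 in Os1400. At +Pi, none of the genes in these 9 lists was called between the genotypes, beside 0.540% higher and 0.418% lower of all genes tested. At low-Pi, 12.4% of all genes tested were higher and 4.47% lower in Os1400. There, 0 of 30 dirigent proteins were higher and 4 lower, and 0 of 7 superoxide dismutases higher and 2 lower. Casparian strip membrane proteins were higher in 4 and lower in 1 of 34. Laccases and other multicopper oxidases were higher in 1 and lower in 2 of 26. Each of the other lists held at most 1 call in each direction.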

How the data were processed

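Root RNA of 12 libraries (3 in each of 4 groups) was sequenced. According to the submitters' processing notes, reads were aligned with HISAT2 2.0.5 and counted per gene with featureCounts 1.5.0-p3. The build of the genome, the annotation release, and the strand setting are not given in the sources used here. The authors deposited raw counts in one table for +Pi and another for low-Pi, and FPKM values for all libraries. Each deposited count table lists genes with a summed count of at least 2. Another 28 columns, which hold normalized counts, group means, and repeated FPKM values, were not used, nor were the authors' fold changes and p-values.

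The members and the gene lists were chosen with earlier results of these data known. Counts were tested in edgeR 4.0.16 (R 4.3.3) by the quasi-likelihood test with TMM normalization and filterByExpr (minimum count 10, minimum total 15), each comparison with its own 6 libraries and the interaction with all 12, where groups from both tables share the genes listed in both. P-values were adjusted over all genes tested (Benjamini-Hochberg, threshold 0.05). All adjusted p-values in the text are from this test, and log2 fold changes are given ± SE. A fold against libraries at 3 counts or fewer was computed against 3 counts per library, which is 0.0730 to 0.106 CPM. Alternatives were DESeq2 1.42.0, DESeq2 size factors, other filters, a replicate block, 1 fit over all 12 libraries, genes missing from a table set to 0, and each library left out. Named genes were the 10 with the highest mean FPKM, up to 5 per comparison and direction by p, genes called in both genotype comparisons, the ascorbate peroxidases, and genes at 3 counts or fewer in one genotype and at least 30 in the other. On simulated counts with 200 genes changed by 2 on the log2 scale, the test recovered 81.5% (Os1400 against WT) at +Pi and 4.5% at low-Pi, 9% (low-Pi against +Pi) in WT and 81.5% in Os1400, and 18% for the interaction. False calls made up 0% to 10% of the simulated calls. The 200 were drawn from well-counted genes among 23332 to 27652. The data held 4301 calls between genotypes at low-Pi and 5962 in the WT response. Recovery depends on the share of changed genes, so these percentages need not hold for the data.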

Additional observations from a re-analysis of the deposited data

Results flagged for a closer look

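The interaction test found that the genotype effect (Os1400 against WT) differed between low-Pi and +Pi for 14 peroxidase genes, and each value here is the effect at low-Pi minus that at +Pi on the log2 scale. Negative values were found for class III peroxidases 43 (Os03g0368300, -3.57), 98 (Os07g0115300, -3.33), 32 (Os02g0833900, -2.37), 90 (Os06g0695500, -2.12), and 4 (Os01g0270300, -1.01) and for ascorbate peroxidase 7 (Os04g0434800, -0.711). Positive values were found for class III peroxidases 27 (Os02g0236600, 2.67), 122 (Os09g0471100, 2.34), and 17 (Os01g0543100, 0.929) and for ascorbate peroxidase 2 (Os07g0694700, 1.10). Class III peroxidases 24 (Os02g0161800, 11.1) and 131 (Os11g0112200, 9.08), the unnamed Os12g0111800 (9.83), and ascorbate peroxidase 8 (Os02g0553200, 8.50) had 0 counts in WT low-Pi, so their fitted values depend on the prior count and are no bounds. The adjusted p of these 14 genes was between 0.000372 and 0.0347 in edgeR's quasi-likelihood test. The call of Os01g0270300 was kept in 9 of 18 alternatives and that of Os01g0543100 in 14 of 18.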

How the results depend on the processing

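With DESeq2, 10 peroxidase genes were called between genotypes at +Pi, 26 at low-Pi (9 higher, 17 lower), and 22 in the interaction (11 higher, 11 lower), against 4, 16, and 14 in edgeR. Over all genes, DESeq2 called 662, 5746, and 5597, against 266, 4301, and 3838 in edgeR. Without a filter on low counts, 10 peroxidase genes were called at +Pi, beside 469 over all genes. In 1 fit over all 12 libraries, the peroxidase calls were 0 at +Pi (6 at an unadjusted p of 0.05 or less), 25 at low-Pi, and 29 in the Os1400 response to Pi, against 62. That fit called 33, 7818, and 2559 of all genes, respectively. Leaving out single libraries gave 1 to 5 peroxidase calls between genotypes at +Pi, 0 to 25 at low-Pi, 12 to 53 in the WT response, 42 to 67 in the Os1400 response, and 12 to 25 in the interaction. Over all genes, the ranges were 133 to 254, 0 to 7168, 1830 to 9043, 5830 to 8039, and 2619 to 6658. The peroxidase calls kept in every alternative were 0 of 4, 0 of 16, 11 of 38, 28 of 62, and 8 of 14 in the same order. Of 1014 alternatives over 75 results of named genes, 869 kept the call, 145 lost it, and 0 reversed it. DESeq2 size factors moved the median of all genes in the interaction from 0.38 to 0.27 and that of the peroxidase genes from -0.35 to -0.47. The causes were not tested.

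Whether replicate numbers pair the libraries is not settled by the correlations of same-numbered deviations, which ran from -0.0697 to 0.449. Between WT low-Pi and Os1400 low-Pi, they were -0.0185, 0.368, and 0.449 for replicates 1, 2, and 3. In the other comparisons of groups, they lay between -0.0697 and 0.0977. With the number as a replicate block, the peroxidase calls were 6 between genotypes at +Pi, 7 at low-Pi, 20 in the WT response, 56 in the Os1400 response, and 15 in the interaction. Over all genes, the block gave 276, 1045, 1943, 7341, and 3218 calls in the same order. Between genotypes at low-Pi, the block lost the calls of Os02g0161800, Os04g0434800, Os05g0135200, Os07g0115300, Os09g0471100, Os10g0109600, Os11g0112200, and Os12g0111800.

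A gene at 0 counts in WT low-Pi was not detected in these libraries, which held 28271749 to 32613875 counts each. The Os1400 low-Pi libraries held 29596562 to 32984885 counts each. They had 28082 to 30375 genes with a count, against 17711 to 22077 in WT low-Pi. Zeros also stood beside high counts in WT low-Pi, as for Os06g0521500 with 265, 0, and 1331 counts. A bound against 3 counts therefore describes these libraries only, and the cause of the zeros was not tested. The simulated recovery in comparisons that use the WT low-Pi libraries was low, so a gene not called there is not shown to be unchanged.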
